A study of Mus musculus with 7 samples.

Results

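Antisense signal was compared between mouse brain and mouse kidney over all 2611 reverse probe sets of the Affymetrix U74A array, each probe set only with itself. They were chosen by array design alone, as every probe set that Affymetrix's mask for this design marks as reverse, out of 5652 such probe sets on the U74A and U74B arrays of the series. Brain antisense U74A and kidney antisense U74A are 1 array each, 2 of the 7 arrays of the series. Either organ was rinsed in ice-cold PBS once dissected and taken straight into TRIzol. Biotin-labelled cRNA was prepared by the Affymetrix standard procedure starting with 8 micrograms of brain RNA and 6.75 micrograms of kidney RNA, so the amount of RNA differs between the groups together with the tissue. Strain, age, sex and the number of animals are not given in the sources used here. With 1 array per tissue there is no replicate error, no difference has a test, and the small number of arrays limits how precise any value is.

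A natural antisense transcript is an RNA read from the DNA strand opposite to that of a gene. It may overlap the gene's start, end or body, be a long noncoding RNA or the tail of a neighbouring coding gene, and it can pair with the sense RNA or act on its transcription, splicing or stability. A reverse probe set of the U74 design carries probes in the orientation opposite to that of the gene it was named for, so its target is RNA of the opposite strand. Each gene symbol given here therefore names the locus, and the signal is read as that of RNA antisense to it. Where the identifier marks probes that may be shared by several transcripts, such as _f_at, RNA of other loci may add to the signal. In whole tissue, a lower signal from fewer cells of a type cannot be told apart from less RNA per cell.

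Signals were computed with MAS5 and are linear intensities. The median signal of the 2611 probe sets was 21.7 in brain and 18.3 in kidney, the highest 3185.7 and 2788.8, and the 75th percentile 63.5 and 39.8. The tissue labels were checked on the sense arrays of the same series, with the centred sense ratios and the sense floor given below. There, 62 of 65 neuronal and synaptic genes read at least 2-fold above kidney in the brain and 0 the other way. Of 34 proximal tubule genes above the sense floor, 32 were higher in kidney and 1 in brain. The reverse probe sets themselves held few genes that mark a cell type. Of 10 marker lists, 23 genes had a reverse probe set, and 9 of their 25 probe sets were above the antisense floor of 63.5 described next. The 3 reverse probe sets of oligodendrocyte genes and the 2 of proximal tubule genes all stayed below it in both tissues.

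Signals below 63.5, the higher of both arrays' 75th percentiles, were raised to this floor before a ratio was taken, and a probe set above it in at least 1 tissue was called higher in a tissue from 2-fold. Of the 2611 probe sets, 723 were above the floor, 305 of them in both tissues, 348 in brain only and 70 in kidney only. Of these 723, 208 had antisense signal at least 2-fold above kidney in the brain, or 28.8%, and 27 were at least 2-fold above brain in the kidney, or 3.73%. The remaining 488 differed by less than 2-fold. Differences of 4-fold or more were found for 27 probe sets towards brain and 8 towards kidney, and of 8-fold or more for 5 and 3. In 82 of the 208 probe sets higher in brain, and in 10 of the 27 higher in kidney, the lower tissue was under the floor, so their folds are lower bounds and are written as at least N-fold.

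The excess towards brain depended on the scale of the arrays. The median log2 ratio of brain over kidney was 0.55 (1.46-fold) over the 723 probe sets. The floor is the 75th percentile of the brain array, so this median belongs to a set of which 348 entered through brain only, and the medians over all 2611 lay closer together at 21.7 and 18.3. After both arrays were centred on the median ratio of their brighter probe sets, which removed 0.73 on the log2 scale, 85 probe sets were higher in brain and 76 in kidney. With quantile normalization it was 72 and 90. The share of calls that went towards brain was thus 88.5% with the signals as deposited, 52.8% centred and 44.4% quantile-normalized. Both of these scalings moved most ratios towards kidney, so they could end calls towards brain and hardly any towards kidney. Of the 208 calls towards brain, 85 held after centring and 72 with quantile normalization. The rank of a probe set within its own array is the same at any scale. Ranks are therefore given beside the signals of single loci, and no count of ranks is drawn from the 723, since the floor let more of them in through brain.

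**Figure D1:**
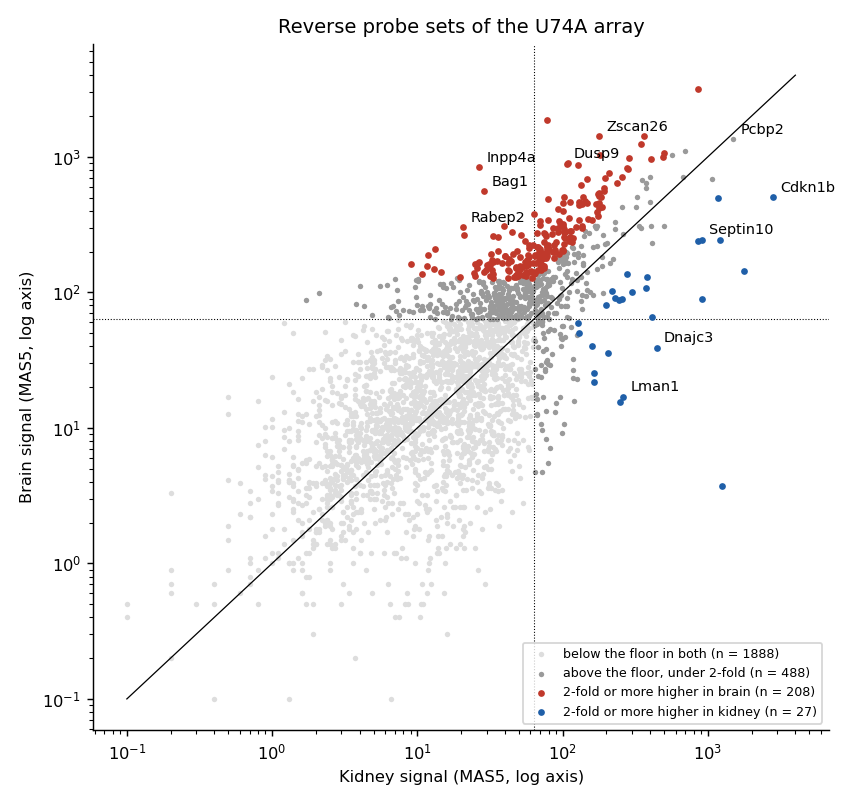
Brain signal against kidney signal of the 2611 reverse probe sets on log axes, 1 point per probe set, with the line of equal signal and the floor of 63.5 as dotted lines. The 208 probe sets higher in brain lie close above the line in a broad band, and the 27 higher in kidney lie scattered below it, with Cdkn1b as the brightest kidney signal.

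**Figure D2:**
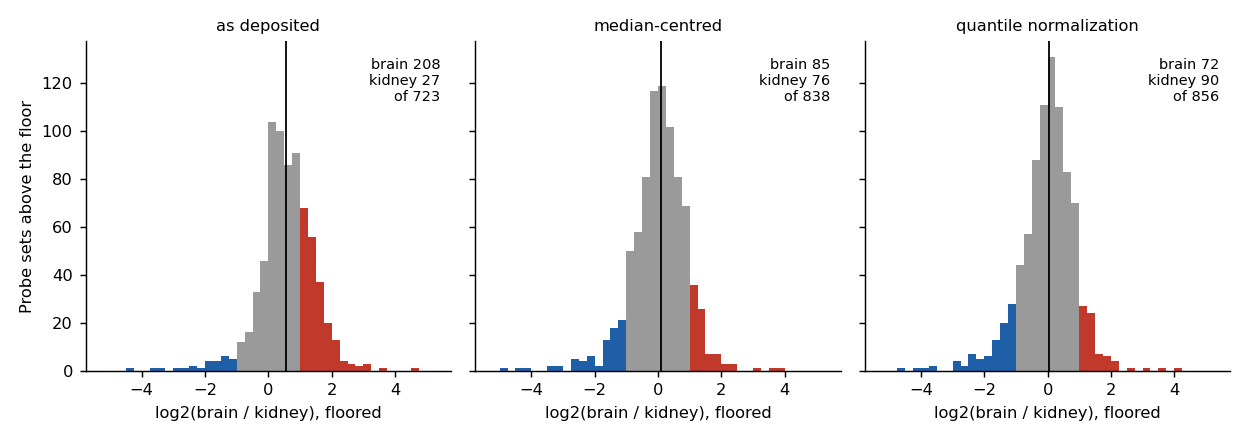
Number of probe sets above the floor by log2 ratio of brain over kidney, for signals as deposited, median-centred and quantile-normalized. Coloured bars are differences of 2-fold or more, blue towards kidney and red towards brain, and the vertical line is the median, which moves from 0.55 to 0.10 and 0.06 while the split of calls moves from 208 and 27 to 85 and 76 and to 72 and 90.

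Of the probe sets that named 1 gene, 129 were higher in brain and 18 in kidney. The largest named difference towards brain lay at Inpp4a, the gene of an inositol polyphosphate 4-phosphatase (probe set 93161_f_at). Its antisense signal was 834.9 in brain, rank 17 of the array, and 26.7 in kidney, rank 991, at least 13.1-fold apart. Bag1, a cochaperone of Hsp70 (101032_at), gave 557 against 28.8, at least 8.77-fold higher in brain and at percentile 98.7 against 64.2. Both kidney signals lay under the floor while both brain signals were among the brightest 2% of their array, and both differences stayed above 3 on the log2 scale after centring and with quantile normalization. An annotated lncRNA, 4930439A04Rik, lies inside Inpp4a on the opposite strand. The 250 bases before its annotated start are shown because this is the locus of the largest named difference, with the CG pairs in capitals (RefSeq, GRCm38.p6, chr1:37334233-37334482, minus strand, 5′ to 3′).
4930439A04Rik: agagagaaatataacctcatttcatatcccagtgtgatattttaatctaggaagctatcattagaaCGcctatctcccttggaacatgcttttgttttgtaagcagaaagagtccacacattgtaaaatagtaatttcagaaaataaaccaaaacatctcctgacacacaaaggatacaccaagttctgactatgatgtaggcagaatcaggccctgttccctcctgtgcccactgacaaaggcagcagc

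The loci of signalling genes among the 30 largest named ratios are given first. Dusp9, a dual specificity phosphatase of MAP kinases (99685_f_at), read 890.9 in brain and 106.6 in kidney, 8.36-fold higher. Gpsm2, a G protein regulator that orients the mitotic spindle (98043_at), read 378.5 and 63.3, at least 5.96-fold higher in brain. Sphk2, a kinase that makes sphingosine 1-phosphate, read 413.8 and 93.5, a 4.43-fold difference. The kidney signals of Dusp9 and Sphk2 were above the floor, at percentiles 93.9 and 92.1, so these loci gave signal in both tissues. Gngt2, the gamma subunit of cone transducin, read 464.2 and 129 (3.60-fold), and Ogfr, a receptor for an opioid growth factor, read 1413 and 360.9 (3.92-fold). Ogfr was rank 4 in brain and rank 29 in kidney, bright in both. Flcn, the folliculin tumour suppressor, read 400.2 and 100.8 (3.97-fold), and Lamtor3, a scaffold of the lysosomal Ragulator complex, read 297.4 and 86.5 (3.44-fold). Of these, Gngt2 and Lamtor3 were under 2-fold with quantile normalization, while all stayed at 2-fold or more after centring.

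The next loci are those of histone, transcription and DNA repair genes and of Parp16. H1f8, the linker histone of oocytes (94029_at), gave 903.2 in brain and 109.4 in kidney, 8.26-fold higher. Zscan26, a zinc finger factor with a SCAN domain (103698_at), was the brightest named probe set of the brain array at rank 3, with 1418.9 against 178.2, a 7.96-fold difference. Mef2d, a MADS box factor of muscle and neurons (94569_f_at), gave 340.8 and 79.9, a 4.27-fold difference. All of these passed 2-fold under each scaling and with a floor at the 90th percentile. Paxx, a factor of DNA end joining, gave 758.2 and 208.7 (3.63-fold), but was under 2-fold with quantile normalization. Sra1, known as a noncoding RNA activator of steroid receptors that also encodes a protein, gave 260 and 32.9, at least 4.09-fold. Parp16, an ADP-ribosyltransferase of the endoplasmic reticulum membrane, gave 264.3 and 20.8, at least 4.16-fold, and its percentile was 95.8 in brain and 54.2 in kidney. Sra1 and Parp16 passed 2-fold under both other scalings and not with the floor at the 90th percentile, which raised their kidney signal to 140.7. The lncRNA 4930470G03Rik is annotated tail to tail with Zscan26 on the opposite strand. The 250 bases before its start are shown because Zscan26 was the brightest named locus in brain (RefSeq, GRCm38.p6, chr13:21440221-21440470, plus strand, CG pairs in capitals).
4930470G03Rik: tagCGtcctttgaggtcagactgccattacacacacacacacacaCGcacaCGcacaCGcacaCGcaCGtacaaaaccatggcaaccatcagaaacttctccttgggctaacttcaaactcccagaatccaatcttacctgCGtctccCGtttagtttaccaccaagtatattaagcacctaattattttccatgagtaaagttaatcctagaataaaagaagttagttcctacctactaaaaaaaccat

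Among genes of traffic, motors and metabolism, Rabep2, an effector of Rab proteins on endosomes (100231_f_at), gave a brain signal of 303.2 against 20.7, at least 4.77-fold apart. Kif3a, a kinesin motor that builds cilia (101813_at), read 311.2 and 69.5, a 4.48-fold difference. Fem1a, a substrate receptor of a cullin ubiquitin ligase, read 453.1 and 99.8 (4.54-fold), and Cdc34, a ubiquitin-conjugating enzyme, read 1242 and 347.1 (3.58-fold). Dpm2, a subunit of dolichol phosphate mannose synthase, read 254.9 and 35.9, at least 4.01-fold higher in brain. Nme4, a mitochondrial nucleoside diphosphate kinase, read 269.6 and 75.3 (3.58-fold), and Fads1, a fatty acid desaturase, read 443.6 and 128.7 (3.45-fold). The remaining loci of the largest differences include genes known mainly from other organs or cells. Gast, the gene of the stomach hormone gastrin, read 695.3 and 196.3 (3.54-fold), Prg2, the major basic protein of eosinophils, 224 and 58.4 (at least 3.53-fold), and Rom1, a membrane protein of rod outer segments, 223.8 and 62.2 (at least 3.52-fold). Nme4, Fads1, Gast, Cmc2 and the predicted gene Gm11100 were under 2-fold with quantile normalization, and Nme4, Dpm2, Prg2 and Rom1 with the floor at the 90th percentile. Of the 30 named probe sets with the largest ratio towards brain, 30 stayed at 2-fold or more after centring, 22 with quantile normalization, 24 with the higher floor and 17 under all 3. Kif3a and the lncRNA A430108G06Rik are annotated head to head. The 250 bases before the start of the lncRNA are shown as an example of a start region rich in CG pairs (RefSeq, GRCm38.p6, chr11:53567314-53567563, minus strand, CG pairs in capitals).
A430108G06Rik: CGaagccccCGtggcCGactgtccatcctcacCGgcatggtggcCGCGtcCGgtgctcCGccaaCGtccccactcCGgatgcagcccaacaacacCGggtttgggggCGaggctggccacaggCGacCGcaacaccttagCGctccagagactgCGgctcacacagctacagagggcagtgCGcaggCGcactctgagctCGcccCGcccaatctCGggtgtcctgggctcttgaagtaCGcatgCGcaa

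The loci higher in kidney were fewer, and those of genes with a product in the endoplasmic reticulum or Golgi are given first. Tmed7, a p24 family cargo receptor between endoplasmic reticulum and Golgi, was measured by 2 probe sets. The first (94904_i_at) read 88.8 in brain and 909.7 in kidney, 10.2-fold higher in kidney. The second (94905_f_at) read 243.5 and 1211.2, 4.97-fold higher, so both put Tmed7 towards kidney and at ranks 9 and 5 of the kidney array. Dnajc3, a cochaperone in the endoplasmic reticulum lumen (98654_f_at), gave 39 in brain and a kidney signal of 445.4, at least 7.01-fold apart. Lman1, a lectin that carries glycoproteins to the Golgi (102592_f_at), read 17 and 260.2, at least 4.10-fold higher, and stood at percentile 45.1 in brain and 98.4 in kidney. Golph3, a Golgi protein that binds phosphatidylinositol 4-phosphate, read 35.8 and 206.4 (at least 3.25-fold), and Yipf4, a Golgi membrane protein, read 129.4 and 381.8 (2.95-fold). Asph, an aspartate hydroxylase of the endoplasmic reticulum, read 50.5 and 128.7, at least 2.03-fold and close to the threshold.

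Cdkn1b, an inhibitor of cyclin-dependent kinases (104459_at), was the brightest reverse probe set of the kidney array at 2788.8 and rank 42 of the brain array at 502, a 5.56-fold difference. Its signal was thus among the brightest 2% of either array. Septin10, a filament-forming GTPase, read 244.4 in brain and 911.5 in kidney (3.73-fold), and Bag2, another cochaperone of the Bag family, read 15.4 and 248.4 (at least 3.91-fold). Bag1 and Bag2 thus stood on opposite sides, Bag1 higher in brain and Bag2 higher in kidney under each scaling. The remaining loci higher in kidney were as follows. Cox20, an assembly factor of cytochrome oxidase, read 238.8 and 853.1 (3.57-fold), Cox17, its copper chaperone, read 59.3 and 128.3 (at least 2.02-fold), and Smim4, a small membrane protein of mitochondria, read 108.5 and 376 (3.47-fold). Eef1b2, an exchange factor of translation elongation, read 500.4 and 1170.2 (2.34-fold), and Rps27l, a paralog of a ribosomal protein, read 90.4 and 228.9 (2.53-fold). Ube2d2a, a ubiquitin-conjugating enzyme, read 40.5 and 160.4 (at least 2.53-fold), and Tollip, an adaptor of Toll-like receptor signalling, read 102.3 and 218.4 (2.13-fold). Zfp503, a zinc finger repressor of development, read 80.6 and 198.3 (2.46-fold). Centring and quantile normalization moved the ratios of these 18 named probe sets further towards kidney and so put none of their calls to the test. With the floor at the 90th percentile 9 of the 18 stayed at 2-fold or more. Those 9 were the 2 of Tmed7 and those of Dnajc3, Cdkn1b, Septin10, Cox20, Smim4, Yipf4 and Eef1b2.

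Zfp503 lies head to head with the lncRNA A330001L22Rik. The 250 bases before the start of the lncRNA are shown for the kidney locus with an annotated lncRNA on its opposite strand (RefSeq, GRCm38.p6, chr14:21989225-21989474, plus strand, CG pairs in capitals).
A330001L22Rik: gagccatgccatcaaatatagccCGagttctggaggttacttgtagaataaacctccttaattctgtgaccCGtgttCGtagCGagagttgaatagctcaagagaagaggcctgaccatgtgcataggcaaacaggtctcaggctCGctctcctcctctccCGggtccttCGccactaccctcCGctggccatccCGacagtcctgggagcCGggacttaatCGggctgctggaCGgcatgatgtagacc
The 4 lncRNA start regions, which were chosen after the values were seen, held 1 CG pair at the Inpp4a locus, 8 at Zscan26, 23 at Kif3a and 12 at Zfp503. Their GC content was 40%, 42%, 67.2% and 55.2%. CG reads the same on both strands. Among 32851 promoter windows of this length the median was 6 CG pairs, 92.1% held at least 1, 43.0% at least 8, 33.5% at least 12 and 13.3% at least 23. The regions with 1, 8 and 23 CG pairs belong to loci higher in brain and that with 12 to the locus higher in kidney.

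**Figure D3:**
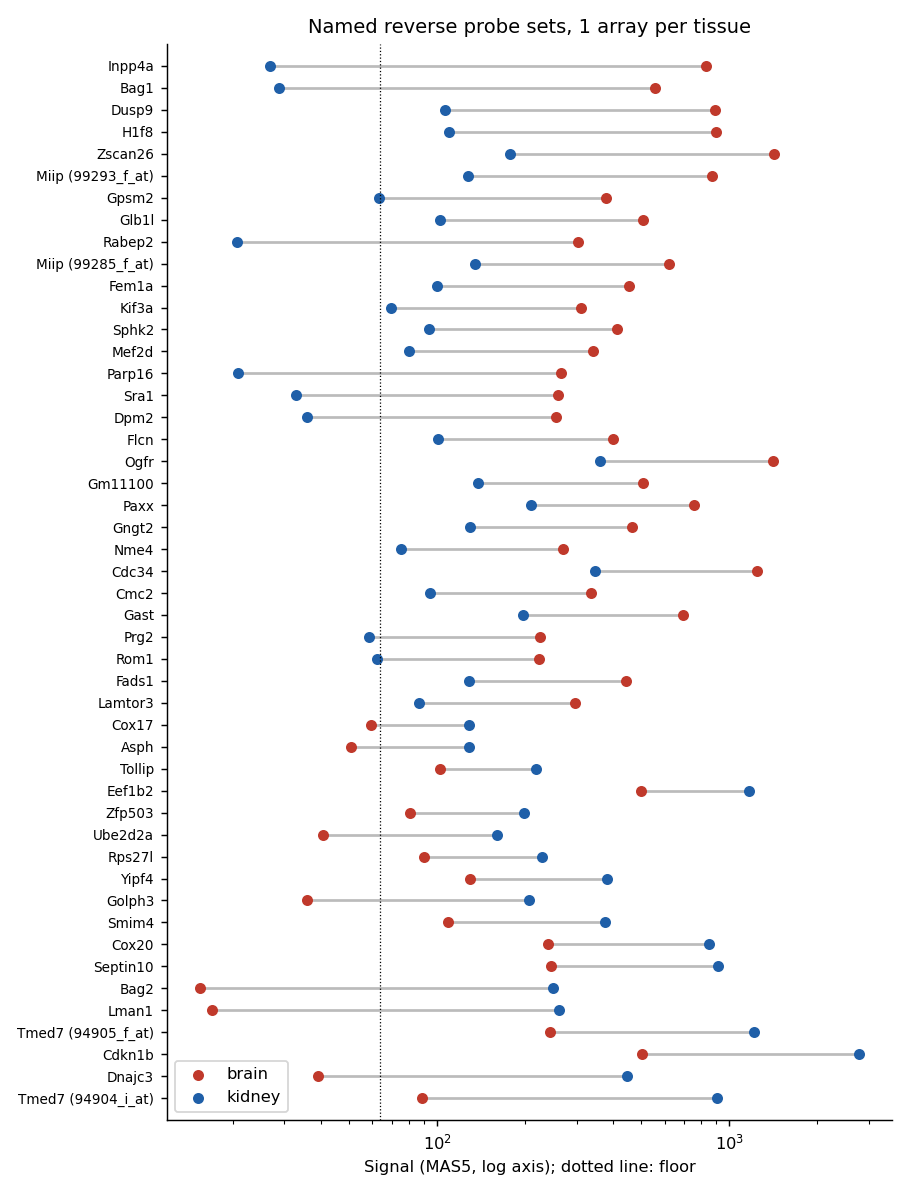
Signals in brain (red) and kidney (blue) of the 30 named probe sets with the largest ratio towards brain, from the top, and the 18 towards kidney, at the bottom, on a log axis with 1 array per point and the floor of 63.5 dotted. Inpp4a and Bag1 have the widest gaps towards brain, with kidney signals under the floor. Bag2 and Lman1 have the widest towards kidney, with brain signals under the floor.

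Some loci gave bright antisense signal in both organs. Pcbp2, an RNA-binding protein of the KH family (92620_at), read 1344.6 in brain and 1491.3 in kidney, rank 5 and rank 3. Sf3b2, a splicing factor subunit (93110_f_at), read 681.1 and 1059.8, and Cbx3, a heterochromatin protein (97806_at), read 1022.6 and 569.6. Pcbp2 differed by 1.11-fold and remained under 2-fold under each scaling, while Sf3b2 was 1.56-fold higher in kidney as deposited and passed 2-fold after centring (log2 ratio -1.37) and with quantile normalization (-1.03). Usp47, a deubiquitinating enzyme, read 505.2 and 326.4, and Tchh, a structural protein of hair follicles, 591.4 and 372.8. Both were higher in brain as deposited by under 2-fold, and both turned to the kidney side after centring (-0.10 and -0.07) and with quantile normalization (-0.17 and -0.16). The probe sets of highest mean rank over the tissues also included those of Ogfr, Cdc34, Cdkn1b, Eef1b2 and Glb1l, a gene of the beta-galactosidase family that read 997.4 and 488 in its brightest probe set.

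Not every large difference fell on a named gene. Of the called probe sets, 79 towards brain and 9 towards kidney had no single gene symbol. The largest difference of all was 99783_f_at, at 1873.8 in brain and 77.5 in kidney (24.2-fold). The largest towards kidney was 102525_f_at, with a brain signal of 3.7 and a kidney signal of 1245.2 (at least 19.6-fold), and 102461_f_at followed at 144.8 and 1772.7 (12.2-fold). These probe sets were rank 2 of the brain array and ranks 4 and 2 of the kidney array. Probe sets without a single gene symbol were thus among the brightest antisense signals of either organ. Their identifiers end in _f_at, which marks probes that may be shared by several transcripts, so the RNA behind these signals is not known. Towards brain, 98718_at (488.3 and 79.7, 6.13-fold), 95828_f_at (1030.1 and 179.9, 5.73-fold) and 99247_f_at (309.8 and 39.2, at least 4.88-fold) came next. Towards kidney, 93876_i_at (65.3 and 412.8, 6.32-fold) and 98184_f_at (101.1 and 301, 2.98-fold) did. The 4 towards brain stayed at 2-fold or more after centring and with quantile normalization.

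The genes were then grouped into 51 lists of pathways, complexes and cell types. Of these, 27 held at least 1 called probe set, 20 had more calls towards brain than towards kidney, 2 had more towards kidney, and 11 had no member above the floor. The shares of all 723 probe sets, 28.8% and 3.73%, are the measure for each list. In 24 lists at least 4 probe sets were above the floor, and only for these was a median taken. The list with the most calls towards kidney was vesicle traffic and the secretory pathway, with 4 of 14 towards kidney (both of Tmed7, Lman1 and Golph3) and 4 towards brain, a median log2 ratio of 0.26 or 0.30 below that of all probe sets. Its members towards brain were Vps26b, a retromer subunit (586.2 and 193.2), Vps72 (157.8 and 30.1), Stxbp2, a partner of syntaxins (424.5 and 186.4), and Ap1s1, an adaptor of clathrin (129.3 and 47.8). Vps72 is known as a subunit of a chromatin remodelling complex rather than of a vesicle coat. After centring the calls of this list were 1 towards brain and 4 towards kidney, and with quantile normalization 1 and 5.

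Chaperones and cochaperones were divided as well. Of 9 probe sets above the floor, 3 were higher in brain (Bag1, the small heat shock protein gene Hspb8 at 143.2 and 42.9, and the chaperonin gene Cct3 at 146.1 and 50.2) and 2 in kidney (Dnajc3 and Bag2). The call of Cct3 was lost after centring and those of Cct3 and Hspb8 with quantile normalization. Canx, the calnexin gene, read 140.9 and 146.4 in one probe set and 80.6 and 65.5 in another, under 2-fold in both. Among 8 translation factors and tRNA synthetases, Eif4a1 (182.4 and 68.5) and Eef1d (284 and 112.8) were higher in brain and Eef1b2 in kidney, although Eef1d and Eef1b2 encode subunits of the same exchange complex. Both brain calls were under 2-fold after centring and with quantile normalization. Of 7 probe sets of cyclins, cyclin-dependent kinases and their inhibitors, Cdc34 was higher in brain and Cdkn1b in kidney. Cdc34, although counted in this list, is a ubiquitin-conjugating enzyme, and it was not counted in the ubiquitin list. Of 8 probe sets for ubiquitin conjugation and removal, Usp1 (419.8 and 178.7) was higher in brain and Ube2d2a in kidney. Usp1 was under 2-fold after centring or quantile normalization. Zinc finger factors had 1 call each way in 4 probe sets, Zscan26 and Zfp503. Cytoskeleton and motor proteins, the list with the most probe sets above the floor at 15, also had 1 call each way, Kif3a and Septin10.

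The respiratory chain list had the lowest median as deposited. Cytosolic ribosomal proteins had the lowest after centring (-0.58 against -0.42) and with quantile normalization (-0.72 against -0.44). RNA polymerase and general factors also lay below the respiratory chain after centring, and apoptosis regulators with quantile normalization. The 5 respiratory chain probe sets had a median log2 ratio of -0.09 as deposited, 0.64 below that of all probe sets, with Cox17 called towards kidney and none towards brain. Ndufa6 read 66 in brain and 107.4 in kidney and passed 2-fold after centring, while Ndufb2 read 115.6 and 58.6, on the brain side. The 4 probe sets of cytosolic ribosomal proteins had a median of 0.13 with Rps27l called towards kidney, and the 4 of amino acid and detoxification enzymes a median of -0.02 with no call. These 3 lists lay below the median of all probe sets as deposited, after centring and with quantile normalization. So did other lists, among them vesicle traffic, lysosomal genes, cyclins and their kinases, and apoptosis regulators, so this position is not particular to the 3. Solute carriers had no call in 4 probe sets, with Slc29a1, a nucleoside transporter, at 225.7 and 195.8.

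G proteins and their regulators had the highest median as deposited, while glycolysis had the highest after centring (0.72 against 0.59) and with quantile normalization (0.74 against 0.44). Extracellular matrix genes also lay above the G proteins with quantile normalization (0.47). Of 5 G protein probe sets, Gpsm2, Rgs10, a regulator that speeds GTP hydrolysis (455.1 and 178), and Gng11, a gamma subunit (253.9 and 101.7), were higher in brain. The list median was 1.32, or 0.77 above that of all probe sets. Only Gpsm2 stayed at 2-fold or more after centring or quantile normalization. For glycolysis, gluconeogenesis and the citrate cycle 3 of 4 probe sets were higher in brain. These were the aldolase genes Aldoa (202.9 and 48.3) and Aldoc (128.1 and 42.1) and the succinate-CoA ligase gene Suclg2 (150.5 and 73.9), and of these Aldoa alone held under both other scalings. Of 6 immune genes 3 were higher in brain, namely Cd79b of the B cell receptor (199.2 and 88.5), the decoy receptor Il1r2 (141.7 and 56.3) and Il15ra (134.5 and 47.9), and none held under either other scaling. The same was true of chromatin genes, where Mbd2, a reader of methylated DNA (276.7 and 93), Prmt5, an arginine methyltransferase (198.2 and 86.1), and Kdm1b, a histone demethylase (159.4 and 71.8), were the 3 calls towards brain in 9 probe sets and 0 remained after centring or quantile normalization.

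Smaller counts were found in the remaining groups. RNA polymerase and general factors had 2 of 6 towards brain, the Mediator genes Med20 (187.6 and 57.5) and Med11 (184.9 and 64.2) and neither held after centring or quantile normalization. DNA replication and repair had 2 of 6, Parp16 and the clamp loader gene Rfc5 (185.4 and 78.4), and fatty acid metabolism had 2 of 6, Fads1 and Fabp9 (209.7 and 70.2). Of these, Parp16 alone held under both other scalings, though it encodes an enzyme of the endoplasmic reticulum membrane, and Fads1 held after centring only. Small GTPases had 1 of 8, Ralb (283.8 and 114.8), which was under 2-fold after centring, while Rhoc (23.3 and 117.4) was on the kidney side and passed 2-fold after centring and with quantile normalization. Splicing and RNA-binding proteins had 12 probe sets above the floor and no call, with a median of 0.55 equal to that of all probe sets. Neuronal and synaptic genes had 6 probe sets from 4 genes, all above the floor, and 1 was called. That was Pcp4, a calmodulin-binding protein of Purkinje cells, at 209.5 and 13.2, while its second probe set read 104.6 and 7.2. Tubb3, the neuronal tubulin, read 88.2 and 66.5 and turned to the kidney side after centring and with quantile normalization.

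**Figure D4:**
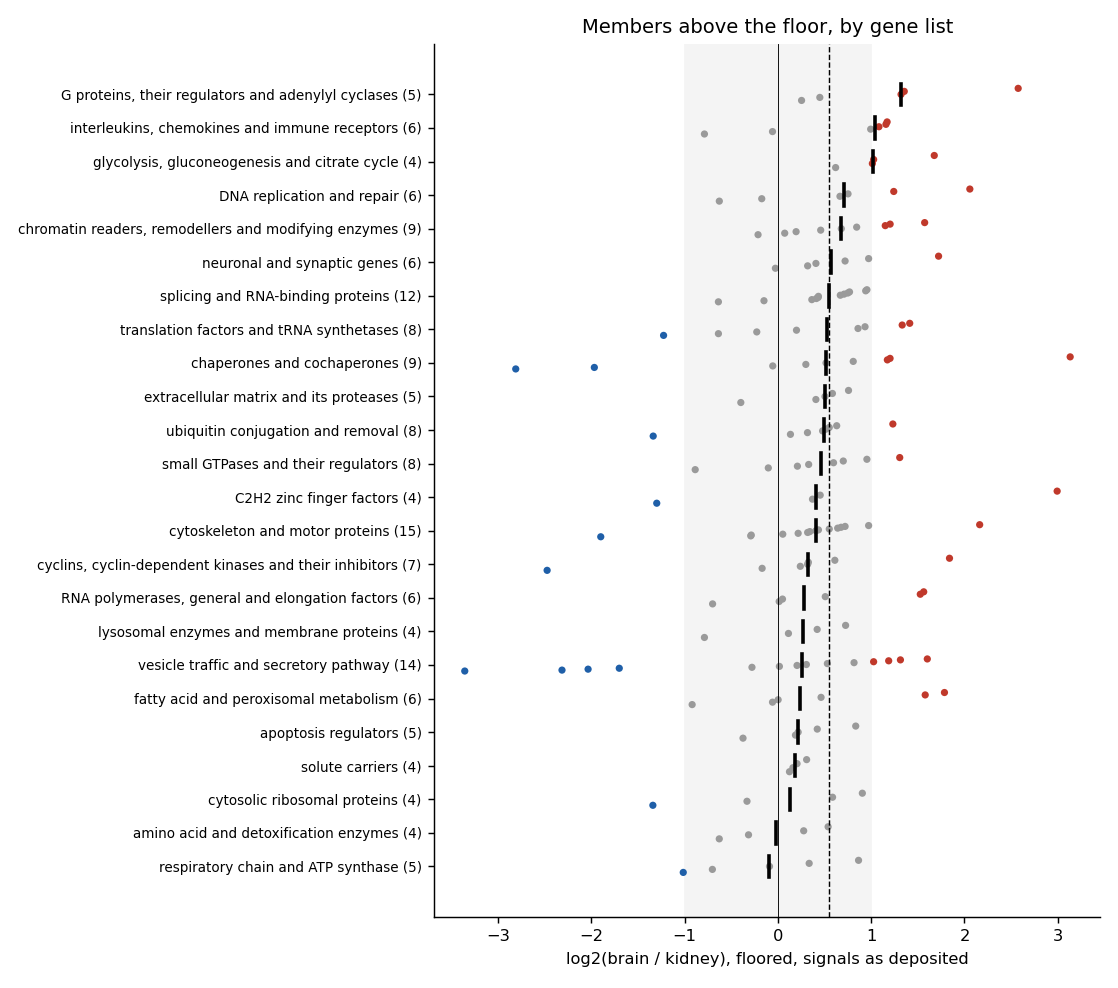
Log2 ratio of brain over kidney of the probe sets above the floor in each of the 24 lists with at least 4, 1 point per probe set, sorted by the list median (thick bar), with the number of probe sets in brackets and signals as deposited. The grey band marks differences under 2-fold and the dashed line the median of all 723 probe sets (0.55). Most of the lists lie below this line, among them vesicle traffic and ribosomal proteins, with the respiratory chain list lowest. The G protein list lies highest of those above it.

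Several probe sets of a gene gave a second reading on the same array. Of the genes named, 22 had at least 2 probe sets above the floor, 46 in all, and the pooled SD of the log2 ratio between probe sets of a gene was 0.62. This SD describes probe sets, not animals or arrays. The call was alike for all probe sets of 14 genes, 3 of them towards brain (Miip, Gast and the mitochondrial creatine kinase gene Ckmt2), Tmed7 towards kidney and 10 in neither. In the other 8 genes some probe sets were called and others not, and in no gene were they called in opposite directions. Miip, an inhibitor of cell migration, read 873.6 and 127.2 in one probe set and 621.1 and 134.6 in the other (6.87-fold and 4.61-fold). Glb1l had 4 probe sets, 3 of them called towards brain, with log2 ratios from 0.91 to 2.30. The widest disagreement was at Cmc2, a factor of cytochrome oxidase biogenesis, where the signals were 335.3 and 94.2 in one probe set, on the brain side, and 56.5 and 98.6 in the other. The log2 ratios of Cmc2 were thus 1.83 and -0.63, on opposite sides. So were those of Repin1 (-0.71 and 0.39), Sf3b2 (-0.64 and 0.43), Canx (-0.06 and 0.30) and Wdr54 (-0.09 and 0.11).

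A suffix other than plain _at marks Affymetrix probe sets whose probes may also match other transcripts or were chosen by relaxed rules. The 1338 unmarked ones (_at) and the 916 whose probes may be shared (_f_at) had about the same share of calls towards brain, 28.6% of 395 and 29.5% of 258 above the floor. Towards kidney the shares were 2.53% and 4.26%. Of the 27 calls towards kidney, 10 were unmarked, against 113 of the 208 towards brain and 395 of all 723 above the floor. The calls towards kidney thus leaned more on marked probe sets. In the marked class _i_at, 4 of 17 above the floor were called towards kidney, or 23.5%, beside 3.73% of all 723. In the same class 6 of 17 were called towards brain, or 35.3%, beside 28.8% of all 723, so its share was higher both ways. Cdkn1b, Septin10 and Eef1b2 were among the 10 unmarked, while Tmed7, Dnajc3, Lman1 and Bag2 rest on marked probe sets. Towards brain, Inpp4a, Dusp9, Mef2d and Rabep2 rest on marked probe sets (_f_at), and Bag1, Gpsm2, H1f8, Zscan26 and Kif3a on unmarked ones. Of the 30 named probe sets with the largest ratio towards brain, 19 were unmarked. Whether RNA of other loci adds to the signal of a marked probe set was not tested.

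A second design gave a few of the same genes. The U74B array had reverse probe sets for 64 genes that U74A also had, with no probe set in common, and 8 genes were above the floor on both designs (98.5 on U74B). In 4 the ratio had the same sign and in 4 the opposite. Luc7l3, a splicing factor, was higher in brain on both, at 165.1 and 38.2 on U74A and 470 and 4.9 on U74B. Fam104a read 105.2 and 53.5 on U74A, under 2-fold after flooring, and 774.7 and 333.7 on U74B. Sltm, a transcription modulator, went opposite ways, with 114.7 and 28.1 on U74A and 74.4 and 202.5 on U74B. Its floored log2 ratio was 0.85 on U74A, under 2-fold, and -1.04 on U74B. Dusp9, which was 8.36-fold higher in brain on U74A, read 36.9 and 73.6 on U74B, both below the floor of that array. With 8 genes, how often the designs differ cannot be given.

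The sense signal of the same genes was then set beside the antisense signal. Brain sense was read on 430A and 430B arrays and kidney sense on a 430 2.0 array, so array type and tissue cannot be told apart in the sense ratios. These were centred, which removed -0.84 on the log2 scale from 430A and 2.08 from 430B, and floored. The sense background was 19.8% higher in brain and 21.1% in kidney on 430A, and 18.5% and 24.2% on 430B. Of the 470 named reverse probe sets above the floor, 371 had a sense probe set above its own floor. Among the 94 with antisense higher in brain, sense was higher in brain for 20, or 21.3%, and in kidney for 24, or 25.5%. Among the 18 with antisense higher in kidney, sense was higher in kidney for 9, or 50%, and in brain for 1, or 5.56%. Over all 371 the shares were 14.3% for brain and 27.8% for kidney. The sense and antisense log2 ratios had a Pearson correlation of 0.23 and a Spearman correlation of 0.22 across the 371 probe sets, which share 2 pairs of RNA samples and are not independent. With sense signals as deposited, 16 of the 94 were at least 2-fold higher in brain and 34 in kidney, and the rest in neither. Of the 18, 14 were at least 2-fold higher in kidney. Over all 371 the shares were then 11.3% higher in brain and 42.3% in kidney.

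Single genes showed both patterns. Pcp4 and Aldoc were higher in brain on both strands, with sense signals of 1906.4 in brain and 115.7 in kidney for Pcp4 and 4198.6 and 413.3 for Aldoc, a glycolytic enzyme of astrocytes and Purkinje cells. Inpp4a (352.6 and 103.6) and Zscan26 (275.5 and 187.8) were also higher in brain in sense, with centred log2 ratios of 1.76 and 1.39, although the sense ratio of Zscan26 was under 2-fold as deposited (0.55). Towards kidney, sense and antisense were both higher for Zfp503 (sense 20.4 in brain and 1937.6 in kidney), Smim4 (105.6 and 1525.9), Rps27l (293.2 and 3446.5) and Dnajc3 (172.7 and 1219.2). At other loci the strands went opposite ways. The sense signal of Bag1 was 424.4 in brain and 2092.1 in kidney, a centred log2 ratio of -1.46, whereas its antisense signal was at least 8.77-fold higher in brain. Sense was likewise higher in kidney for Suclg2 (565.9 and 3328.3), Mettl7b (9.1 and 1713.7), Plxnb2 (181.8 and 1664.1) and Usp1 (166.6 and 1416.7), all with antisense higher in brain as deposited. Of these, Suclg2, Mettl7b, Plxnb2 and Usp1 had antisense differences under 2-fold after centring, whereas Bag1 did not. Rabep2, with antisense at least 4.77-fold higher in brain, had sense signals of 491.3 and 791.3 and a centred log2 ratio of -2.77, but as deposited its sense ratio was under 2-fold (-0.69). H1f8, Dusp9 and Gast had no sense signal above the sense floor in either tissue. Their sense signals were 18.2 in brain and 11.6 in kidney for H1f8, 17.5 and 121 for Dusp9, and 5.1 and 2.8 for Gast. The bright reverse signals of these loci in brain thus stood beside sense signals under the sense floor.

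**Figure D5:**
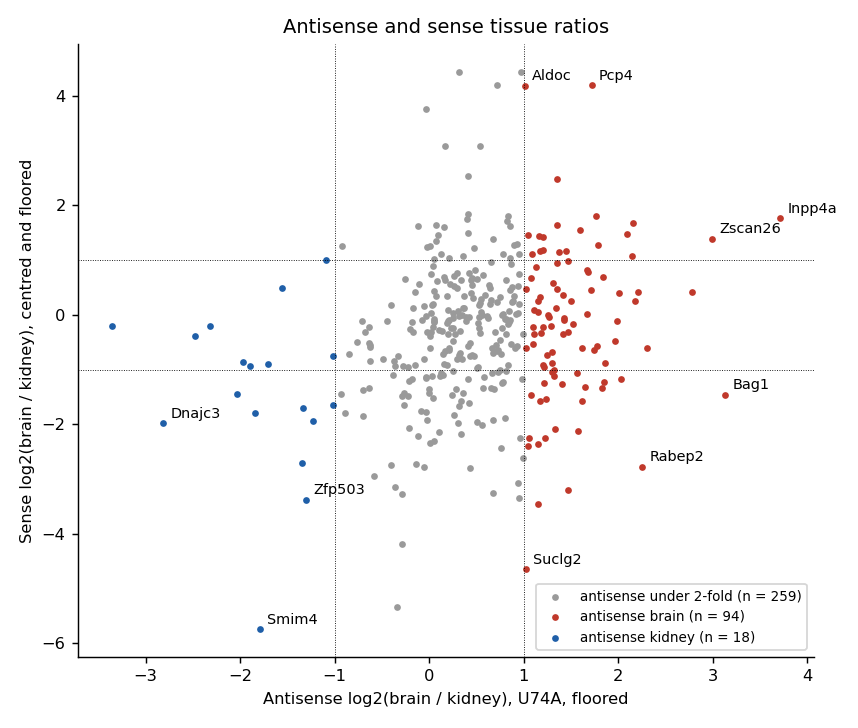
Centred sense log2 ratio of brain over kidney against the antisense log2 ratio of U74A for 371 named reverse probe sets, 1 point each, with dotted lines at 2-fold. Of the 18 blue points with antisense higher in kidney, 9 lie in the lower left where sense is higher in kidney too, and the 94 red points spread over both sense directions, with Bag1, Rabep2 and Suclg2 low and Pcp4 and Aldoc high.

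The RefSeq annotation of GRCm38.p6 was searched for genes that overlap these loci. Any overlapping gene was annotated for 202 of 470 named probe sets above the floor, or 43.0%, and for 467 of 1077 below it, or 43.4%. Among the calls it was 51 of 129 towards brain, or 39.5%, and 8 of 18 towards kidney, or 44.4%. The shares lay within 5 percentage points of each other. The strand of the overlap was known for 80.6% of the loci above the floor, 79.3% below it and 66.7% of those called towards kidney, so shares of opposite-strand overlap were not compared. An overlapping gene on the opposite strand was listed for 32 of the called genes, in 40 gene pairs, of which 16 lay tail to tail, 12 head to head, 11 with the partner inside the gene and 1 with the gene inside the partner. In 19 pairs the partner was a lncRNA and in 21 a protein-coding gene.

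Of the partners at loci with antisense higher in brain, 15 genes had their own sense signal above the floor. After centring it was higher in brain for 1 (Ankzf1, a partner of Glb1l, at 295.1 and 171.6), in kidney for 4 and in neither for 10. One of the 4, Hipk2, was read on 430B and its signals as deposited lay on the brain side (1762.8 and 1398.2). Over all sense probe sets above the floor, 19.8% were higher in brain and 21.1% in kidney on 430A, and 18.5% and 24.2% on 430B. With 15 genes, no result about partners as a group is drawn from these counts. Smim4 lies tail to tail with Pbrm1, a subunit of a chromatin remodelling complex, whose sense signals were 421.5 in brain and 728.7 in kidney, under 2-fold after centring. Cox20 lies tail to tail with Hnrnpu, a nuclear RNA-binding protein (1227.4 and 3237.9, also under 2-fold after centring). Sphk2 lies tail to tail with Dbp, a circadian transcription factor (426 and 496.2), and Kdm1b with Dek, a chromatin protein (256.8 and 1532.8, higher in kidney while the reverse signal of Kdm1b was higher in brain). The lncRNA partners of Kif3a (27 in brain and 13.3 in kidney as deposited) and Zfp503 (41.1 and 15.6) were, after centring, under the sense floor in both tissues. The positions of the probes within the loci were not used, so whether a listed partner is the RNA that a reverse probe set reads was not tested.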

How the data were processed

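The deposited signals are intensity values that the submitters' processing notes credit to MAS5. From the U74 arrays the authors took, per the labels, the probe sets marked as reverse in the Affymetrix mask. No scaling target for them was found in the labels. Gene names are those of the GEO platform annotation (1552 reverse probe sets with 1 symbol, 17 with several, 1042 with none, 1375 genes). Of these, 1547 probe sets had a gene identifier that matched the RefSeq annotation of GRCm38.p6, and no symbol changed.

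Signals were compared as deposited with a floor at the 75th percentile and a threshold of 2-fold. The alternatives were median centring, quantile normalization, floors at the 90th percentile and the median, a pseudocount of 32 without floor, unmarked identifiers only, 1 probe set per symbol and a 3-fold threshold. Sense ratios used the kidney 430 2.0 array as partner of 430A and 430B, with the floor at the median. The genes named were the 30 and 20 largest ratios towards brain and kidney (18 existed), the 10 of highest mean percentile, up to 4 per list, every gene with 2 or more probe sets above the floor, 4 unnamed probe sets each way, up to 10 genes on both U74 designs, and 8 genes with sense in the same and 8 in the opposite direction. Only part of them is given with values. The lncRNA partners, H1f8, Dusp9 and Gast as loci of little sense signal, and the gene pairs described were chosen after their values were seen. The members and the 51 lists were chosen with earlier results of these data known. The steps were tested on simulated data. Python 3.11.15, numpy 2.4.6, pandas 2.3.3 and matplotlib 3.10.9 were used.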

Additional observations from a re-analysis of the deposited data

How the results depend on the processing

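Against 208 probe sets higher in brain and 27 in kidney, centring gave 85 and 76, quantile normalization 72 and 90, a floor at the 90th percentile 71 and 13, a floor at the median 491 and 118, unmarked identifiers alone 113 and 10, 1 probe set per symbol 123 and 17, and a 3-fold threshold 66 and 13. A pseudocount of 32 without floor gave 262 and 45. The median log2 ratio of 0.55 was 0.10 centred, 0.0582 quantile-normalized and 0.77 with the pseudocount, and 0.46 and 0.50 with the higher and lower floor. Unmarked identifiers and 1 probe set per symbol count fewer probe sets, and the 3-fold threshold asks a larger difference. Centring removed 0.73 on the log2 scale, and quantile normalization gave both arrays the same distribution. The higher and lower floors left 286 and 1563 probe sets above them, against 723. How far each of these steps accounts for the changed counts was not tested. Sense signals as deposited were tried after seeing the data. Of the 18 loci with antisense higher in kidney, 14 were then at least 2-fold higher in kidney in sense, against 9 centred. The share over all 371 went from 27.8% to 42.3%. Of the 203 named probe sets, none changed direction as a called value under any of these 5 settings. Centring took 32 below 2-fold and brought 11 above it, quantile normalization 41 and 12, the higher floor 45 and 0, the lower floor 0 and 51, and the pseudocount 16 and 27. No paired analysis was possible because each tissue has 1 array per design, and for the same reason no replicate could be left out. Weak signals are the other limit. 1888 of the 2611 probe sets were below the floor in both tissues and gave no ratio.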
